A study of Mus musculus with 2 samples.

Results

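Il1rn, Il1a, Il1r1, Il33, Il6, Il11, Lif, Il6ra, Il6st and Osmr encode ligands, an antagonist and receptor chains of the interleukin-1 and interleukin-6 cytokine families. These 10 genes, of 54532 in the deposited table, were read by gene name and compared between CT26 cells given Oct4 and SOX2 and CT26 cells given an empty vector. They were chosen by name with FPKM values of these same libraries already known, so their differences are a description and support no test. FPKM is the number of fragments per kilobase of gene length at a common depth. CT26 is a mouse colon carcinoma line. Lentivirus brought mouse Oct4 together with human SOX2 into the first culture, whose title calls it dedifferentiated; its library is called the factor library below. The other culture received lentivirus without an insert, has a wild type genotype label, and gave the vector control. Each was grown in RPMI medium with serum for 4 days. The sources used here do not give the promoter of the introduced genes or say whether the cells were a clone or a pool. There was 1 library per culture, so no difference below has a replicate check. Every interval covers counting error only, with each read treated as independent.

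In the interleukin-1 family, Il1a and Il1b encode agonists that bind the receptor Il1r1, which then recruits the accessory chain Il1rap and signals through Myd88, Irak kinases and NF-kB. The product of Il1rn occupies the same receptor without recruiting the accessory chain, and so blocks it. Il33 encodes an alarmin that is read by the receptor Il1rl1, also called ST2. Ligands of the interleukin-6 family share the signalling chain gp130, encoded by Il6st, which acts with a ligand-specific chain (Il6ra, Il11ra1, Lifr or Osmr) and signals through JAK kinases and STAT3, with Socs3 as a feedback inhibitor. In colon tumours IL-6 and IL-11 are known as growth signals for epithelial cells, and LIF is known for keeping mouse embryonic stem cells undifferentiated.

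The libraries held 32262408 gene-assigned reads in the vector control and 31521115 in the factor library. Pou5f1, the gene for Oct4, had 0 and 12406 reads, and mouse Sox2, which can also catch reads from the human copy, had 929 and 1525. Of 12 epithelial and colon markers only Krt18 and Krt20 reached 1 FPKM in either library. Krt18 was at 15.2 FPKM in the vector control and 11.3 FPKM in the factor library, and Krt20 at 14.9 and 28.3 FPKM. Epcam had 1 and 2 reads and Cdh1 had 0 in both. In this line, labelled as colon cancer, some epithelial markers were thus expressed and others were at or near 0.

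These 5 promoter windows, of Il1rn, Il6, Il11 and Il33, each hold a motif named below. They are a selection, and other windows with a match are not shown. Il6st and Il6ra differed more between the libraries than Il11, and their windows held no match. Each runs from 250 bases before to 50 bases after a RefSeq start in GRCm38.p6, 5′ to 3′ on the gene's strand. Capitals mark matches to AP-1 (TGANTCA), the octamer read by POU factors such as Oct4 (ATGCAAAT) and the NF-kB consensus, searched on both strands with CRE (TGACGTCA), SOX (CATTGTT) and STAT (TTCNNNGAA).
Il1rn, upstream start, chr2:24336610-24336909, plus strand: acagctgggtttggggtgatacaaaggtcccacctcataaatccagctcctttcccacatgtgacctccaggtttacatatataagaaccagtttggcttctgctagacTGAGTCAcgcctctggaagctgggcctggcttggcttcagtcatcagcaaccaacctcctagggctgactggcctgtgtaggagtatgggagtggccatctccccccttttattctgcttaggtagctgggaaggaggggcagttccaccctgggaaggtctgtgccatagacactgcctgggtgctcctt
Il1rn, downstream start, chr2:24345041-24345340, plus strand: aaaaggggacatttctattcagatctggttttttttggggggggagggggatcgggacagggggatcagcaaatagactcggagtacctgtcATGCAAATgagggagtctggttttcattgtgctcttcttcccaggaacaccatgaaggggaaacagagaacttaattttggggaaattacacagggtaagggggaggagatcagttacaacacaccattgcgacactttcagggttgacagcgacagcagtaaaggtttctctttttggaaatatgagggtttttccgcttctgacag
Il6, chr5:30012864-30013163, plus strand: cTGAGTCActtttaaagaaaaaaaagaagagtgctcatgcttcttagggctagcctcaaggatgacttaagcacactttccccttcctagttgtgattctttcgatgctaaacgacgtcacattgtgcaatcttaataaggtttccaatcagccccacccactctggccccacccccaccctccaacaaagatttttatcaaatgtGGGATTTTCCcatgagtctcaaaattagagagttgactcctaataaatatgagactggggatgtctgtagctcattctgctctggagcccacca
Il11, downstream start, chr7:4778092-4778391, minus strand: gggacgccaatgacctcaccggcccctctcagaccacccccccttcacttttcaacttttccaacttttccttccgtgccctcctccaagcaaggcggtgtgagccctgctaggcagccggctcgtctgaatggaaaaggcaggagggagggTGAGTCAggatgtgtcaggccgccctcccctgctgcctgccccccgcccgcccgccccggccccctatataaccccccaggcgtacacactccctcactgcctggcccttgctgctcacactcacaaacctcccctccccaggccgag
Il33, downstream start, chr19:29945540-29945839, plus strand: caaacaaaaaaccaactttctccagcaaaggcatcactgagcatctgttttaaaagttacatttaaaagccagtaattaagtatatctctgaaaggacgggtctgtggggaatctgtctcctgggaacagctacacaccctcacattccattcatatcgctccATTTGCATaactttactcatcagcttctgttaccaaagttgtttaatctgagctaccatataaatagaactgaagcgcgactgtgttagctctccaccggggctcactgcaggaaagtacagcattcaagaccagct

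All 10 genes had windows, 15 in total. No motif was matched in the windows of Il6ra and Il6st, or in the upstream windows of Il1r1, Il33 and Il11. The octamer lay in windows of 2 of them: at -158 from a downstream start of Il1rn, on the plus strand, and at -87 from the downstream start of Il33, on the minus strand. The octamer of Il1rn occupies bases 24345133 to 24345140 of chromosome 2, which a neighbouring, overlapping Il1rn window also contains. Over the 27025 gene symbols with a window, 1.97% had an octamer. AP-1 was matched in 6 of the 10 genes, against 8.97% of all symbols: at -141 from the upstream start of Il1rn, at -249 in Il6, at -98 in Il11, and in Lif, Il1a and Osmr. NF-kB was matched in Il6 at -44, in Lif and in Il1r1, against 9.55% of all symbols. In Lif the same 10 bases match on each strand. CRE, SOX and STAT had no match in these 15 windows, against 2.03%, 4.33% and 9.55% of all symbols. Genes with more starts have more windows in which a motif can occur, and a match or its absence shows only whether the letters are in the window. The table holds 1 value per gene, so which start was used was not measured.

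The 2 cytokine genes Il1rn and Il6 were higher in the factor library and the signalling chain Il6st was the member furthest lower. Of the 10 genes, 7 reached 1 FPKM in at least 1 library. On the scale of log2(FPKM + 1), which understates the differences of low genes, 2 of these 7 were at least 2-fold higher, beside 2.42% of the 12401 genes of the table that reach 1 FPKM. None was at least 2-fold lower, beside 1.85%. Il1rn and Il6 reached 1 FPKM only through the library in which they were high, so their place in the count is tied to their difference. Il1rn and Il6 stayed below 5 FPKM in both libraries. With a pseudocount or a filter of 5 FPKM 0 members passed 2-fold, as the low level of Il1rn and Il6 fixed in advance. The median log2 ratio was 0.39 over these 7 and 0.17 over all 10, and -0.01 over the 12401.

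**Figure D1:**
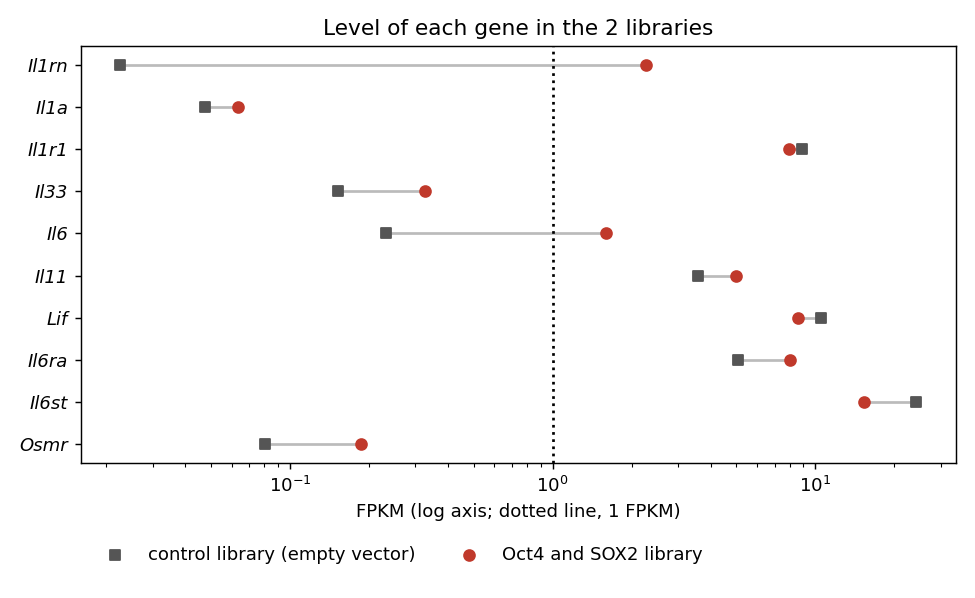
FPKM of each of the 10 genes on a log axis, with a square for the vector control and a circle for the factor library, 1 library each and no error bar. Il1rn and Il6 cross the dotted line at 1 FPKM, and Il1a, Il33 and Osmr lie below it in both libraries.

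Among the interleukin-1 ligands only the antagonist reached 1 FPKM, and only in the factor library. Il1rn (ENSMUSG00000026981, chromosome 2 from 24336853 to 24351494 in GRCm38, plus strand) stood at 0.0226 FPKM in the vector control and 2.27 FPKM in the factor library. The reads were 4 and 400, a ratio of 100.2 (95% counting interval 38.8 to 369). By log2 ratio it was number 47 from the top among measured protein-coding genes, between Wdr47 at 1.72 and Arhgef33 at 1.65. The deposited gene length is 5535 bases, while the principal transcript has 2474 bases in 5 exons. FPKM per deposited length would therefore understate the level of a cell that makes only the short transcript.

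Il1a (ENSMUSG00000027399, chromosome 2 from 129299610 to 129309972, minus strand), which encodes the agonist IL-1 alpha, had 3 and 4 reads, or 0.0476 and 0.0636 FPKM. The ratio of 1.34 had an interval of 0.226 to 9.12, so neither a rise nor a fall was detectable at this depth. Reads on Il1a may also come from the overlapping transcript Gm14023 on the opposite strand, which had 3 and 2 reads, as strand use in counting is not given. Il1b, the other agonist gene, had 4 and 2 reads. Summed, the 2 agonist genes were at 0.113 and 0.0965 FPKM. The antagonist was thus below the agonist sum in the vector control, on 4 against 7 reads, and above it in the factor library.

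Il33 (ENSMUSG00000024810, chromosome 19 from 29925114 to 29960718, plus strand) was at 0.152 FPKM in the vector control and 0.326 FPKM in the factor library. Its 14 and 30 reads gave a ratio of 2.15, with an interval of 1.10 to 4.38 that spans 2. It excludes 1 only if each read is an independent fragment, which is not known. Il18 had 6 and 8 reads. The 5 remaining interleukin-1 ligand genes in the table, Il1f5, Il1f6, Il1f8, Il1f9 and Il1f10, had 0 reads in both libraries.

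The interleukin-1 receptors that reached 1 FPKM were all within 2-fold between the cultures. Il1r1 (ENSMUSG00000026072, chromosome 1 from 40225080 to 40317257, plus strand) was at 8.89 FPKM in the vector control and 7.96 FPKM in the factor library, from 1806 and 1613 reads. This is 1.12-fold lower (interval 1.04 to 1.20). Il1rap, its accessory chain, stood at 0.907 and 0.887 FPKM. Per deposited length Il1r1 was thus 9.80 times Il1rap in the vector control (8.71 to 11.1) and 8.97 times in the factor library (7.95 to 10.1). The decoy receptor gene Il1r2 had 2 and 0 reads.

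Around Il1r1 on chromosome 1 lie other receptors of the family. Il1rl1, the receptor for IL-33, was the highest of them at 24.2 and 19.9 FPKM, 1.22-fold lower in the factor library (1.17 to 1.27). Il1rl2, the receptor for IL-36, stood at 6.91 and 6.02 FPKM. Il18rap, the accessory chain for IL-18, was at 17.5 and 12.9 FPKM, 1.35-fold lower (1.29 to 1.42), while its partner chain Il18r1 had 8 and 6 reads. Sigirr, an inhibitory receptor of the family that does not lie within 200 kb of Il1r1, was at 19.9 and 18.4 FPKM. Of the 6 measured genes among 11 receptors and soluble inhibitors, 5 had a log2 ratio below 0, none passed 2-fold, and the median was -0.16.

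**Figure D2:**
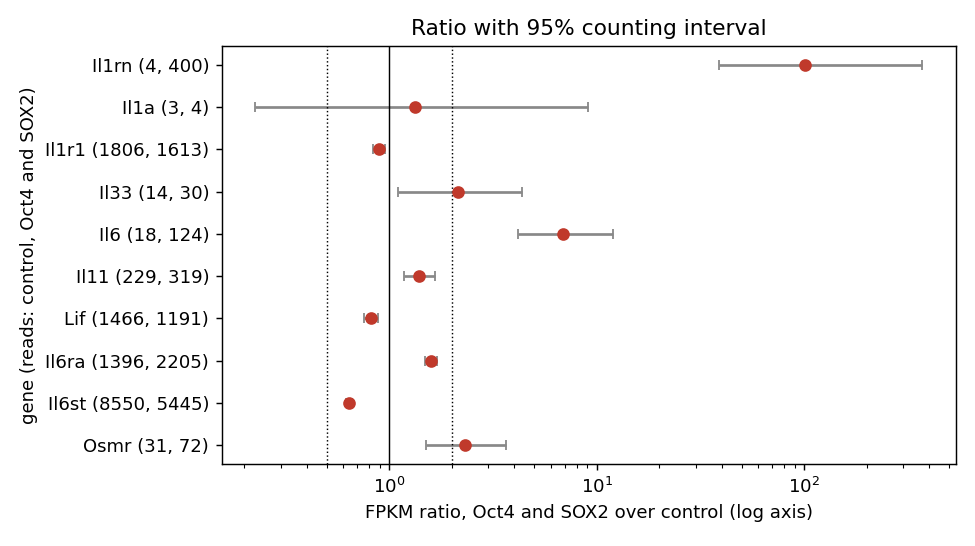
Plain FPKM ratio (factor library over vector control) on a log axis for each of the 10 genes, with exact 95% counting intervals as bars and the reads of each library beside the name; dotted lines mark 2-fold either way. The intervals of Il1rn and Il6 lie wholly above 2, that of Il1a spans 1, and those of Il6st, Lif and Il1r1 lie below 1 but above 0.5.

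Interleukin-6 ligand genes were led by Lif in both libraries. Il6 (ENSMUSG00000025746, chromosome 5 from 30013114 to 30019981, plus strand) was at 0.232 FPKM in the vector control and 1.60 FPKM in the factor library. Its 18 and 124 reads gave a ratio of 6.90 (4.19 to 12.03). In the order by log2 ratio it was number 115 of the measured protein-coding genes, next to the tubulin gene Tuba1a at 1.08 and Pspc1 at 1.08. Even so it stayed the lowest of the 3 interleukin-6 ligands listed here.

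Il11 (ENSMUSG00000004371, chromosome 7 from 4772373 to 4782857, minus strand) was at 3.57 FPKM in the vector control and 4.98 FPKM in the factor library, from 229 and 319 reads. It was 1.40-fold higher (1.17 to 1.66). Lif (ENSMUSG00000034394, chromosome 11 from 4257557 to 4272514, plus strand) was at 10.6 and 8.59 FPKM, from 1466 and 1191 reads. It was 1.23-fold lower (1.14 to 1.33), the opposite direction from Il6 and Il11.

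The mix of these ligand transcripts therefore differed while their sum did not move far. Il6, Il11 and Lif together stood at 14.4 FPKM in the vector control and 15.2 FPKM in the factor library. Per deposited length, Il11 was 15.4 times Il6 in the vector control (9.50 to 26.4) and 3.10 times in the factor library (2.52 to 3.85). Those lengths are 2012 and 2428 bases, against 1949 and 1141 in the principal transcripts, on which both ratios would be smaller. Lif was 2.96 times Il11 in the vector control (2.57 to 3.42) and 1.73 times in the factor library (1.52 to 1.96). Clcf1, another ligand of the family, was measured at 5.97 and 6.95 FPKM. Osm, which lies beside Lif on chromosome 11, had 0 reads in both libraries, and Ebi3 and Il31 also had 0.

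On the receptor side, the ligand-binding chain for IL-6 was higher and the shared signalling chain lower. Il6ra (ENSMUSG00000027947, chromosome 3 from 89864059 to 89913196, minus strand) was at 5.06 FPKM in the vector control and 8.01 FPKM in the factor library. Its 1396 and 2205 reads gave a 1.58-fold higher value (1.48 to 1.69). Il6st (ENSMUSG00000021756, chromosome 13 from 112464070 to 112510086, plus strand) was at 24.1 and 15.4 FPKM, from 8550 and 5445 reads. It was 1.57-fold lower (1.51 to 1.62), and 5.77% of measured genes had a lower log2 ratio. Per deposited length, Il6st was 4.77 times Il6ra in the vector control (4.51 to 5.05) and 1.92 times in the factor library (1.83 to 2.02). The deposited lengths are 11099 and 8642 bases, while the principal transcripts have 8678 and 3343 bases. The size of these ratios and, in the factor library, which gene is higher thus depend on the length used. Neither gene passed 2-fold alone.

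Osmr (ENSMUSG00000022146, chromosome 15 from 6813577 to 6874969, minus strand), the receptor chain for oncostatin M, was at 0.0802 and 0.187 FPKM. It had 31 and 72 reads, a ratio of 2.33 (1.51 to 3.67), at a level far below 1 FPKM in both libraries. Lifr, the ligand-specific chain for LIF, had 2 reads in the vector control and 0 in the factor library, although Lif itself was the highest ligand. Il11ra1, the chain for IL-11, was at 1.23 and 1.17 FPKM, with a ratio of 0.951 whose interval of 0.765 to 1.18 includes 1. Il31ra, which lies 9.81 kb from Il6st, had 1 and 13 reads.

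By level per deposited length, the order in the vector control was Il6st, Lif, Il1r1, Il6ra, Il11, Il6, Il33, Osmr, Il1a and Il1rn. Il6 was separated from Il11 above it, while no adjacent pair among the last 5 genes was separated by counting error. With Oct4 and SOX2 the order was Il6st, Lif, Il6ra, Il1r1, Il11, Il1rn, Il6, Il33, Osmr and Il1a. There Lif and Il6ra, at a ratio of 1.07 (0.999 to 1.15), and Il6ra and Il1r1, at 1.01 (0.943 to 1.07), were not separated by counting error. Il1rn moved from the last place to the sixth, 1.42 times Il6 (1.15 to 1.75). Both orders depend on the lengths used, and the order on principal transcript lengths was not tested.

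**Figure D3:**
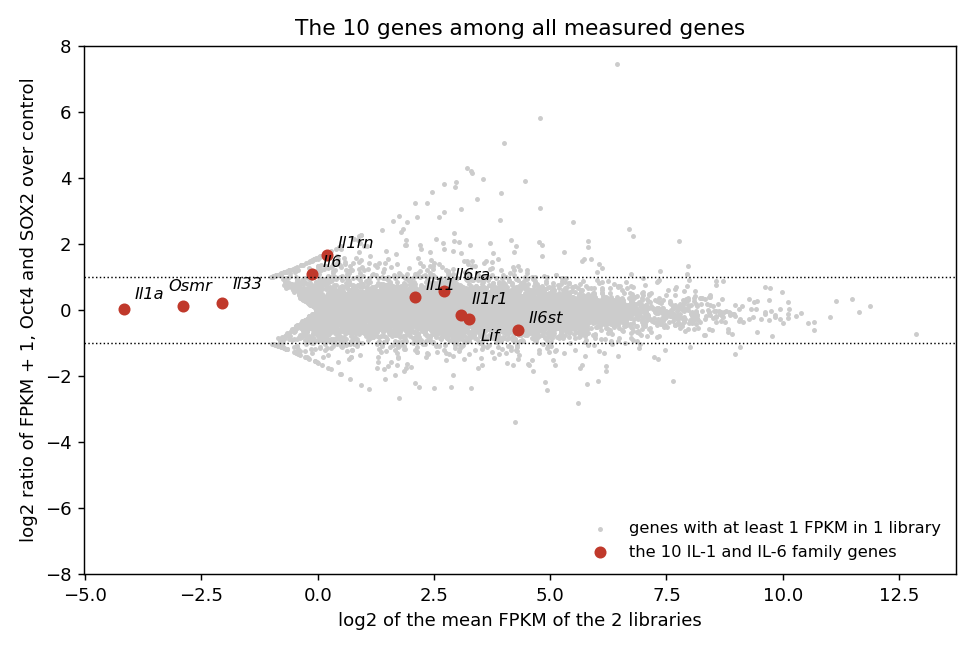
Log2 ratio of FPKM + 1, factor library over vector control (vertical), against log2 of the mean FPKM of the 2 libraries (horizontal) for the 12401 genes that reach 1 FPKM in either library, in grey, and the 10 genes, in red; dotted lines mark 2-fold. Il1rn at 1.68 and Il6 at 1.08 lie above the upper line at low mean level, Il6st at -0.62 lies near the lower edge of the bulk, and Il1a, Osmr and Il33 lie left of the measured genes.

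The genes beside the 10 on the chromosomes gave a count near that of the whole table. Of 80 protein-coding genes within 200 kb of a member, 42 were measured and none was 2-fold higher or lower, beside 2.42% and 1.85% of all measured genes. Around Il1rn none of the 7 neighbours was measured: Psd4 had 55 and 74 reads, Pax8 had 6 and 3, and the other 5 were the interleukin-1 ligand genes with 0 reads. Around Il6 the nearest protein-coding gene, Tyms, which makes thymidylate for DNA synthesis, stood at 5.24 and 7.88 FPKM. Beside Il1a, Ckap2l, a spindle protein gene, stood at 16.8 and 27.6 FPKM. Ckap2l had the highest log2 ratio of Il1a's neighbours, at 0.69.

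Untranslated regions differed between the members too. The AU-rich nonamer TTATTTATT, which marks many short-lived cytokine transcripts, occurred 5 times in the 3′ untranslated region of the principal Il11 transcript and 2 times in that of Lif, and in no other member. It is present in 7.47% of the 10125 measured protein-coding genes with such a region in GENCODE M21. The core pentamer ATTTA occurred 6 times in the 427 bases of Il6, 10 times in the 1194 bases of Il11 and 0 times in the 1864 bases of Il1rn. It also occurred 9 times in Il6st, 8 in Il1r1, 7 in Lif, 4 in Osmr, 3 each in Il1a and Il33, and 1 in Il6ra. Its share over all genes was not computed. The 10 measured RNA-binding factors that govern decay or stability of cytokine transcripts were all within 2-fold, with a median of 0.09. The most expressed were Zfp36l2 at 84.8 and 86.9 FPKM and Khsrp at 52.0 and 61.0 FPKM. Zfp36l1, which was picked with its value known, stood 1.81-fold higher (1.62 to 2.02).

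Downstream of the receptors, 5 of the genes past 2-fold were in the gp130 and STAT3 target list. Across the 10 pathway lists, 90 of 146 genes were measured, 8 were at least 2-fold higher and none lower, with a median of -0.02, beside 2.42% higher, 1.85% lower and a median of -0.01 over all measured genes. In a list of 8 to 19 measured genes, a count of 0 or 1 is near those shares. Of these 8, 6 were not among the 10 genes: Socs3, Bcl3, Cebpd, Il4ra, Timp1 and Vcam1. All but Vcam1 belong to the gp130 and STAT3 target list, where 5 of 15 measured genes were 2-fold higher, none lower, and the median was 0.36. Of these 15, 8 had a log2 ratio above 0 and 7 below 0. Bcl3 reached 1 FPKM only through the factor library, where it was high. The lists were chosen with earlier results of these data known, so the count is a description. With a pseudocount of 5 FPKM 2 of that list passed, and with 0.1 FPKM 5 were higher and 1 lower. Socs3, the feedback inhibitor of gp130, was at 5.87 FPKM in the vector control and 13.1 FPKM in the factor library, 2.24-fold higher (2.02 to 2.48).

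Cebpd, a transcription factor gene of the acute-phase response, was at 4.23 and 13.6 FPKM, 3.21-fold higher (2.90 to 3.55). Bcl3, which encodes an atypical inhibitor of NF-kB, was at 0.696 and 3.17 FPKM, 4.55-fold higher (3.39 to 6.21). Il4ra, the interleukin-4 receptor alpha chain, was at 2.91 and 9.37 FPKM, 3.22-fold higher (2.93 to 3.55). Timp1, a metalloproteinase inhibitor, was at 100.4 and 230.0 FPKM, 2.29-fold higher (2.19 to 2.40). Other members of the same list had lower values in the factor library. Chosen after their values were seen, Cebpb stood at 68.3 and 41.1 FPKM and Bcl2l1, a survival gene, at 52.9 and 35.7 FPKM. Lcn2, which encodes the iron-binding protein lipocalin-2 and was also chosen with its value known, was at 1.66 and 0.730 FPKM from 139 and 61 reads. Its plain FPKM value was 2.27-fold lower (1.67 to 3.13), but on the FPKM + 1 scale its log2 ratio of -0.62 was within 2-fold. The acute-phase gene Saa3, which stayed below 1 FPKM, had 68 and 12 reads.

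In the JAK and STAT list 1 of 19 measured genes, Socs3, was 2-fold higher and none lower, with a median of -0.02. Picked with its value known, Stat3 was 1.62-fold higher (1.54 to 1.70), at 7.96 and 12.9 FPKM. Jak1, the kinase bound to gp130, stood at 19.2 and 20.04 FPKM.

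In the interleukin-1 receptor signalling list none of 14 measured genes passed 2-fold, and their median was 0.00, with Chuk at 33.0 and 31.6 FPKM and Tab2 at 32.4 and 31.9 FPKM as the most expressed. None of 8 measured processing and release genes passed 2-fold either, with a median of -0.19. Capn1 and Capn2, whose calpain products cut the IL-1 alpha precursor, were at 35.3 and 30.7 FPKM and at 65.3 and 59.9 FPKM. Irak3, an inhibitory kinase of the pathway that was picked with its value known, had 4 and 27 reads, a ratio of 6.76 (2.36 to 26.6), below 1 FPKM in both libraries.

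Of 12 measured interleukin-1 and NF-kB target genes, Vcam1 alone was 2-fold higher, none was lower and the median was -0.15. Vcam1, an adhesion receptor gene, was at 11.5 and 78.9 FPKM, 6.85-fold higher (6.61 to 7.11). Other targets, chosen after their values were seen, stood lower: Ptgs2, which makes prostaglandins, at 133.9 and 86.2 FPKM, Tnfaip2 at 78.1 and 46.9 FPKM, and the chemokine gene Ccl20 at 40 and 4 reads. Cxcl1, another chemokine gene, was at 2.52 and 2.85 FPKM.

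**Figure D4:**
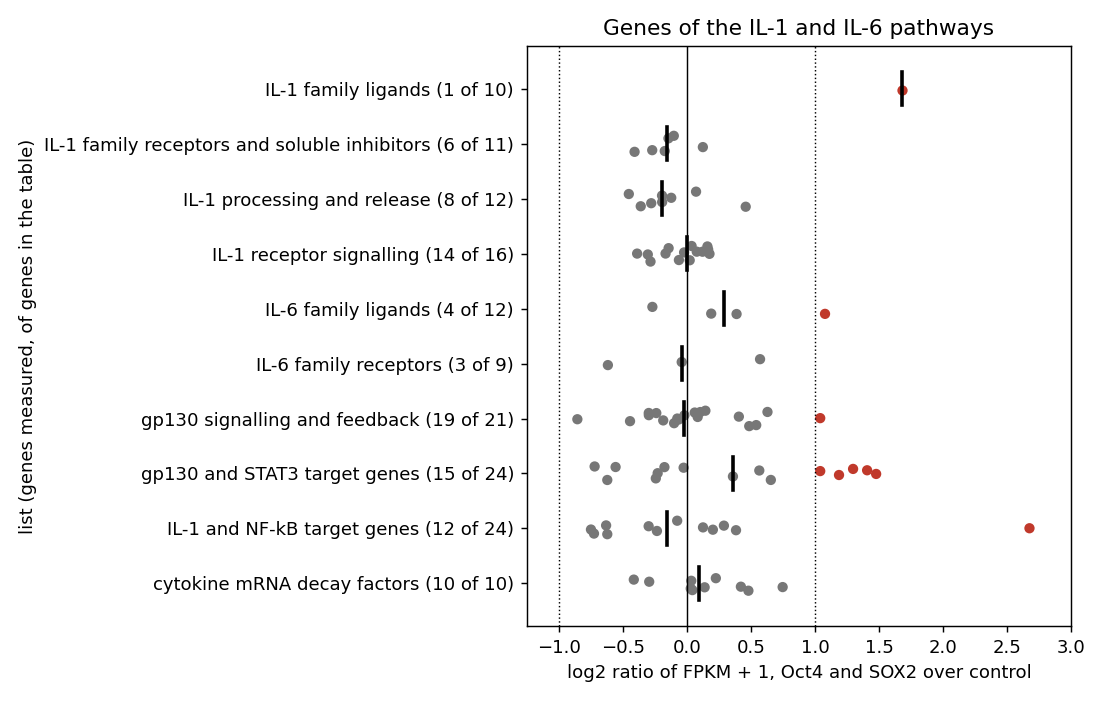
Log2 ratio of FPKM + 1 (factor library over vector control) for each measured gene of 10 pathway lists; 1 point is 1 gene, red at 2-fold or more, the black bar is the list's median and dotted lines mark 2-fold. Most red points, 5 genes, are in the gp130 and STAT3 target list, and the single point furthest right is Vcam1 at 2.67.

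Markers of other cell types that can make these cytokines were partly at 0 and partly measured. Of 7 neutrophil markers none reached 1 FPKM, their sum was 0.394 FPKM in the vector control and 0.0828 FPKM in the factor library, and S100a9, Ly6g, Csf3r and Elane had 0 reads in both. Of 12 leukocyte markers 3 were measured, none passed 2-fold and the sum was 30.6 and 22.9 FPKM. Cd3e, Adgre1 and Tyrobp had 0 reads in both, Ptprc had 2 in each, and Csf1r had 0 and 11. The 3 measured ones had lower values in the factor library: Cd14, a co-receptor for bacterial lipopolysaccharide, at 20.7 and 16.2 FPKM, Cd68 at 5.53 and 4.27 FPKM, and Cd74, the invariant chain of MHC class II, at 3.49 and 1.62 FPKM. Of 10 keratinocyte markers 1 was measured, with sums of 2.56 and 2.49 FPKM. None of 6 endothelial markers was measured, at sums of 0.430 and 0.634 FPKM. Of 9 fibroblast markers 5 were measured, with sums of 269 and 360 FPKM, and Pdgfrb was 2.85-fold lower (2.64 to 3.09), from 14.1 to 4.93 FPKM. Among the collagen genes Col1a2 was at 185 and 306 FPKM, Col1a1 at 62.1 and 40.0 FPKM, and Col3a1 at 6.13 and 7.46 FPKM. Lum had 0 reads in both libraries, Thy1 had 0 and 2, Dcn was at 0.494 and 0.366 FPKM and Fap at 0.365 and 0.310 FPKM. The part of any such cells in the values of Il1rn or Il6 was not tested beyond these levels. In bulk RNA, more cells that make a transcript and more of it per cell cannot be told apart.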

How the data were processed

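The authors deposited 1 table of FPKM values for 1 library in each of 2 cultures of CT26 cells, with a gene length in bases and gene positions. A NEBNext Ultra kit and total RNA were used, per the labels' protocols. The submitters' processing notes name CASAVA, HISAT2, featureCounts 1.5.0-p3 and GRCm38. The sources used here do not state the FPKM formula, strand use, poly(A) selection or the handling of multiply matching reads.

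Reads were recovered from FPKM times gene length, of which 100% of nonzero values were whole multiples of a fixed step to within 0.001 of a read. Differences are log2 ratios of FPKM + 1 for genes with at least 1 FPKM in 1 library, counted at 2-fold. Folds are plain FPKM ratios with exact 95% conditional binomial intervals (Clopper-Pearson), whose coverage was tested on simulated data. The simulation drew independent reads and left genes with few reads out of the coverage, so it cannot test repeated molecules or the lowest genes. Intervals cover counting error only, as PCR copies can repeat a molecule. Low counts were often even, such as 2 reads for Lifr and for Krt14 in the vector control. Both mates of a fragment may thus have been counted, and the intervals would then be too narrow. At these depths 3 reads on 1 kb equal 0.0940 FPKM for the vector control and 0.0942 FPKM for the factor library. No test across samples was possible.

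The 10 genes, 10 pathway lists and 6 marker lists were chosen with earlier results of these data known. The naming rule takes the 10 genes, up to 4 genes per list and direction at 2-fold or, with none, the 2 most expressed, and genes next in rank to, or neighbouring on the genome at 2-fold, a member. Any other gene in the text was named with its values known. Symbols listed more than once were read from the row with most reads. GENCODE M21 gives the same coordinates for 9 of the 10 genes (the end of Il11 differs) and supplied principal transcripts. Promoter windows are from RefSeq, GRCm38.p6. Alternatives were other pseudocounts, filters and scalings. Software was Python 3.11.15 with scipy 1.17.1, numpy 2.4.6, matplotlib 3.10.9 and pandas 2.3.3.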

Additional observations from a re-analysis of the deposited data

How the results depend on the processing

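The log2 ratio of each of the 10 genes kept its sign under all 7 alternatives that give one. Other pseudocounts and filters cannot change a sign, so only centring and the rescalings could have. Those moved the ratios little: Il1r1 went from -0.14 to -0.11 without the 50 highest genes. Its size depended on how low values were treated: Il1rn ranged from 0.53 to 4.27 and Il6 from 0.34 to 2.36, with the lowest at a pseudocount of 5 FPKM and the highest at 0.1 FPKM. With a pseudocount of 5 FPKM 0 of the 10 genes were 2-fold higher, and 0 interleukin-1 ligands, 0 interleukin-6 ligands, 0 genes of the gp130 signalling list and 2 genes of the gp130 and STAT3 target list passed 2-fold, beside 75 higher and 56 lower genes in the whole table. With 0.1 FPKM the interleukin-1 and NF-kB targets had 1 gene higher and 1 lower. The gp130 and STAT3 targets then had 5 higher and 1 lower, beside 520 higher and 459 lower genes over all. A gene below 5 FPKM in both libraries, such as Il1rn or Il6, cannot reach 2-fold with 5 FPKM added. A filter of 5 FPKM removes Il6 and every interleukin-1 ligand, so these could not be counted. It gave 0 members higher and 0 genes past 2-fold among the interleukin-1 and interleukin-6 ligands. The members' median of -0.21 there is over Il1r1, Lif, Il6ra and Il6st only. The table then had 145 higher and 121 lower genes. With no filter the members' median was 0.17. Centring, rescaling without the 50 highest genes, plain read totals and a counting interval wholly beyond 2-fold each gave 2 members higher and 0 lower. No paired analysis was possible because each group has 1 library.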
